A study of Mus musculus with 16 samples.

Results

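The organic ion and drug transporters of the mouse kidney were followed across 4 groups of whole-kidney RNA sequencing libraries. Members were all genes whose symbol belongs to the families Slc22a, Slc47a, Slco1 to Slco6, Abcb, Abcc or Abcg and whose estimated counts summed to at least 100 over the 16 libraries. The rule used names and total abundance, and no difference between groups. It found 61 genes among the 25408 genes with that minimum, of 57186 in the table. They comprised 24 SLC22, 2 SLC47 and 12 SLCO carriers, and 9 ABCB, 9 ABCC and 5 ABCG genes, taken by name, so that not every ABCC member need be a pump. A further 11 rows matched the names and fell under the minimum. They were Abcg5 with 98 counts over all libraries, Slco5a1 with 66, Slco1c1 with 41, Slc22a16 with 3, Abcc12 and Slc22a20 with 1 each, and 5 rows at 0.

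All 16 mice were males on a C57BL/6J background and homozygous for the Elmo1 H allele, so the controls carried it too. Elmo1 encodes an adaptor that activates the small GTPase Rac1, and the H allele raises its expression. The diabetic mice also carried the Ins2 Akita mutation on 1 allele (Ins2 Akita/+), a misfolding proinsulin variant that destroys beta cells and gives lasting hyperglycaemia without any toxin. Vitamin B12 (B12) was given in the drinking water at 10 mg/kg/day from 8 weeks of age. The labels give a treatment of 16 weeks, and the methods of the study give 8 weeks. The groups were ND_C (non-diabetic, untreated), ND_B12 (non-diabetic, B12), D_C (diabetic, untreated) and D_B12 (diabetic, B12), with 4 libraries each, labelled as biological replicates.

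Proximal tubule cells clear drugs, toxins and metabolic waste from blood to urine in 2 steps. Carriers on the blood side, such as the organic anion transporters OAT1 and OAT3 and the organic cation transporter OCT2 of the SLC22 family, take solutes up, and carriers and ATP-driven pumps on the urine side (MATE1 of SLC47, the multidrug resistance proteins of ABCC, P-glycoprotein of ABCB and BCRP of ABCG) release them. Other members recover urate or carnitine from the filtrate, and the organic anion transporting polypeptides (SLCO) carry bile acids, steroid conjugates, thyroid hormones and prostaglandins. In the mouse many of these genes differ between the sexes and respond to androgens.

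Total estimated counts ran from 65271308 to 91771136 per library, and the 61 members took 0.707% to 0.824% of them. Group labels were compared with the group means that accompany the study. Over 181 genes and all 1820 sets of 4 libraries, the sets that best matched those means held 5 libraries under their labelled group and 11 under another. The best sets differed from those means by a median absolute log2 difference of 0.00018 to 0.00026. The next best sets differed by 0.034 to 0.052 and the labelled sets by 0.04 to 0.304. The genotype differed from the label for 2 libraries, the ones labelled ND_B12 4 and D_C 1. Labels were kept throughout, and the members called for diabetes are also given without those 2 libraries. In diabetic kidneys the treatments were nearly exchanged. The 4 libraries labelled D_B12 were the best match to the means of D_C, and the libraries labelled D_C 2, D_C 3, D_C 4 and ND_B12 4 to those of D_B12. By those means the sides of the B12 comparison in diabetic kidneys would be exchanged for all but 1 of the 8 libraries, so that directions given below for it could turn, and the untreated and B12-treated comparisons of diabetes would trade most of their diabetic libraries. The best match to ND_C was ND_C 1, ND_C 2, ND_C 4 and ND_B12 1, and that to ND_B12 was ND_C 3, ND_B12 2, ND_B12 3 and D_C 1. Dates in the library descriptions spanned 111 days, and only 1 date held both genotypes. Date and genotype cannot be told apart for the other libraries.

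Levels are compared between genes as counts per kilobase of merged exon, scaled to the same sum over all tested genes in each library (TPM-like units). The carriers of the SLC22 family held 79.2% of the summed level of all members, SLCO 7.09%, SLC47 6.64%, ABCC 3.74%, ABCG 1.83% and ABCB 1.52%. Slc22a12, which encodes the urate reabsorbing carrier URAT1, stood highest at a mean level of 1309 over the 16 libraries, above 99.8% of all tested genes. Slc22a6 (OAT1, the exchanger that takes up organic anions against dicarboxylates) followed at a level of 551, and the library ranges of the pair, 1123 to 1460.3 and 454 to 615, were apart. These genes alone held 42.1% of the summed member level. Other abundant carrier genes were Slc22a18 at 401, Slc47a1 (MATE1, the proton-coupled exporter of organic cations) at 293 and Slc22a2 (OCT2) at 197. Library ranges overlapped between Slc22a18 and Slc47a1, at 310.2 to 460.4 and 220.4 to 335.

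**Figure D1:**
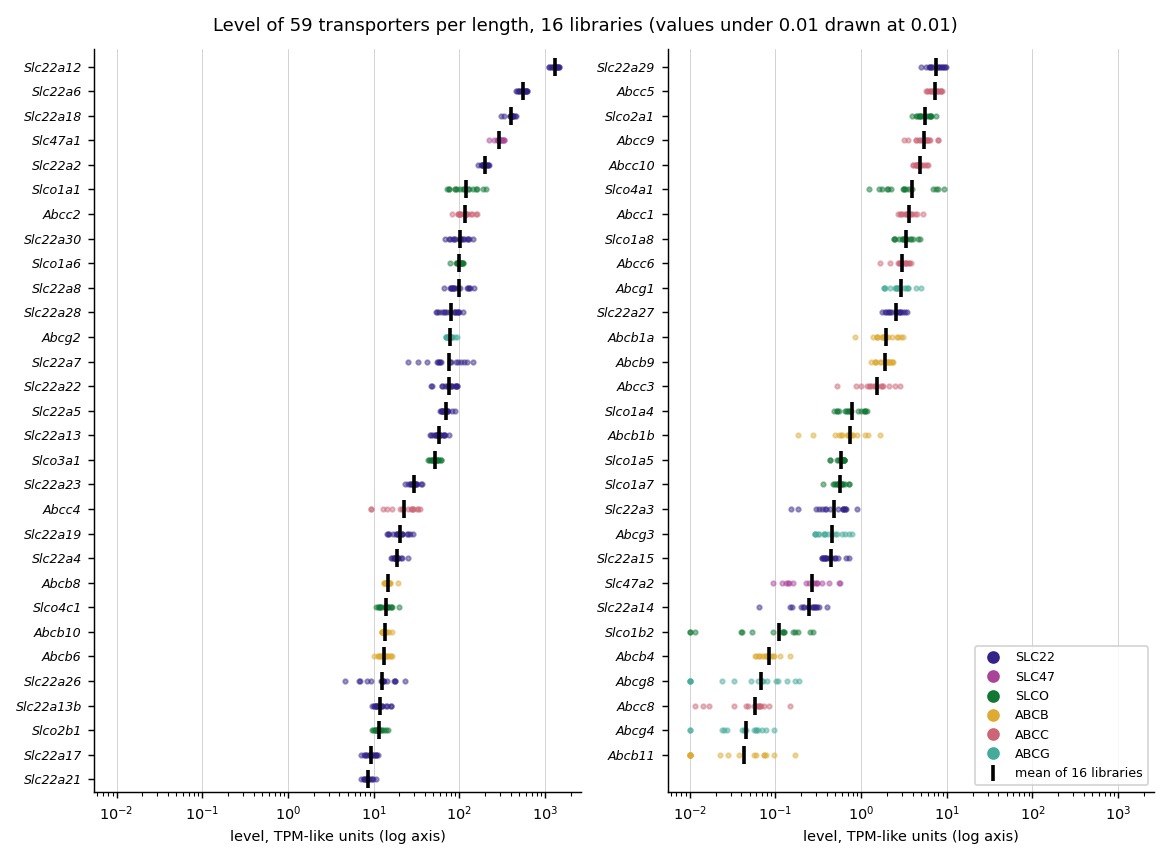
Level of 59 of the 61 transporters in TPM-like units, counts per kilobase of merged exon scaled within each library (log axis), with 1 point for each of the 16 libraries coloured by family and a bar at their mean. Slc22a12 leads at 1309 and 15 members lie under 1.

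The highest SLCO gene was Slco1a1, an uptake carrier of steroid conjugates and bile acids, at 121, followed by Slco1a6 at 100.1. Among the pumps, Abcc2 (MRP2, which exports conjugated organic anions at the apical membrane) reached 117, Abcg2 (BCRP, which exports urate and sulphated solutes) 77.6 and Abcc4 (MRP4, an exporter of organic anions and cyclic nucleotides) 22.8. The P-glycoprotein genes Abcb1a and Abcb1b stood at only 1.98 and 0.751 in whole kidney. The order of these 2 depends on the length used. Merged exons of Abcb1b span 21186 bases, against 4572 in the main transcript, which held 96.2% of its counts. For Abcb1a the lengths were 6150 and 5052, and total counts were 7585, against 9876 for Abcb1b. Low levels, under 1, were measured for 15 members, among them Slc47a2 (MATE2) at 0.271, Slc22a3 (OCT3) at 0.484 and the bile salt pump gene Abcb11 at 0.0434. The defining markers of the proximal tubule were abundant in every library, with a summed normalized count of the 8 markers from 960894 to 1234990.

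The first question was how diabetes changed the transporters, taken as the mean of D_C and D_B12 minus the mean of ND_C and ND_B12 on the log2 scale. A gene was called where the adjusted p of edgeR's quasi-likelihood test over all tested genes (Benjamini-Hochberg) was below 0.05. Of the 61 members, 9 were called (14.8%), beside 3.02% of all tested genes. Of these 3 were higher in diabetic kidneys (0.862% of all genes) and 6 lower (2.16%). At an unadjusted p below 0.05 there were 25 members, beside 19.4% of all genes. Members called lower were Slc22a27, Slc22a28, Slc22a29, Slc22a30, Slc47a1 and Abcg3, and members called higher were Slco4a1, Abcc5 and Abcb9. Without the libraries labelled ND_B12 4 and D_C 1, 22 members were called, beside 9.82% of all genes, 8 higher (4.6% of all genes) and 14 lower (5.21%). DESeq2 called 16 over all libraries, beside 7.21%. With 1 library left out at a time the count was 3 without ND_C 2, ND_B12 3 or D_B12 1, 4 without ND_C 3, ND_B12 2 or D_B12 3, 5 without ND_B12 1 or D_C 2, 15 without ND_B12 4, and between 7 and 12 otherwise. It was 0 with the label date as a covariate. In whole kidney, fewer cells of a type and less RNA per cell cannot be told apart.

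By family, 17 of 24 SLC22 members had a lower estimate in diabetic kidneys, with a median log2 fold change of -0.11 and 4 called. In SLCO 8 of 12 estimates were lower, with a median of -0.11 and 1 member called, in the other direction. In ABCC 7 of 9 estimates were higher, with a median of 0.23 and 1 member called. The medians were -0.02 in ABCB and -0.09 in ABCG, and the median over all tested genes was 0.01. Without ND_B12 4 and D_C 1 the medians were -0.09 in SLC22 (14 of 24 estimates lower), -0.16 in SLCO (8 of 12 lower), 0.26 in ABCC (5 of 9 higher), 0.03 in ABCB and -0.03 in ABCG. Estimates of 59 members and their errors are shown in the plot of log2 fold changes by family.

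**Figure D2:**
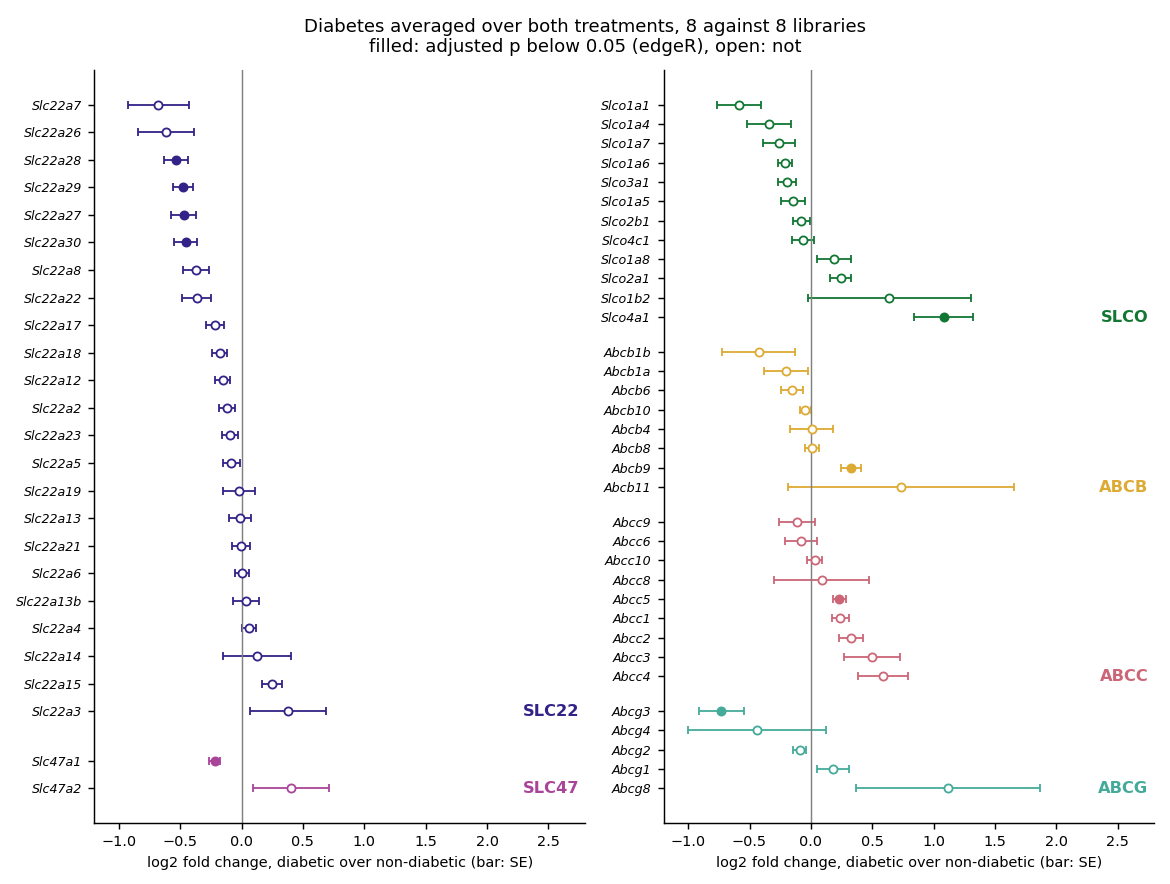
Log2 fold change of 59 of the 61 transporters in diabetic over non-diabetic kidneys, averaged over both treatments (point, with SE as bar), by family. Filled points mark the 9 members with an edgeR adjusted p below 0.05, of which Slco4a1 lies highest at 1.08 and Abcg3 lowest at -0.73.

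The 4 SLC22 genes that fell lie side by side on chromosome 19. In all, 8 members share that stretch, chr19:7650426-8605663 in GRCm39, in the order Slc22a19, Slc22a26, Slc22a27, Slc22a28, Slc22a29, Slc22a30, Slc22a8 and Slc22a6. All belong to the organic anion transporter branch of SLC22, and the first 6 are copies of a group that is expanded in rodents. Of the 8, 7 had an estimate below 0 and 4 were called lower. Slc22a27 (chr19:7841301-7943962, minus strand), Slc22a28 (chr19:8039327-8109346, minus strand), Slc22a29 (chr19:8137529-8230661, minus strand) and Slc22a30 (chr19:8312731-8382475, minus strand) are neighbours within it.

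Slc22a28 showed the pattern at high counts. Normalized counts of Slc22a28 were 14508, 18075, 17280.1 and 15782 for ND_C 1 to 4 and 15422, 14308, 14974 and 9719 for ND_B12 1 to 4. For Slc22a28 the diabetic libraries held 12496, 9007, 9329 and 10721 in D_C and 10147, 10720.1, 8679 and 11386 in D_B12. Every ND_C library lay above every D_C and D_B12 library, and in ND_B12 only library 4 fell to the diabetic range. Library D_C 1 was the highest of the diabetic libraries. Slc22a28 fell by 31.1% in diabetes (log2 fold change -0.54 ± 0.10, SE, edgeR adjusted p = 0.0126), and without ND_B12 4 and D_C 1 the value was -0.65, adjusted p = 8.93e-05.

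Slc22a30, the most abundant of the copies expanded in rodents at a level of 102, was also lower in the diabetic groups. Normalized counts of Slc22a30 were 17058, 20799, 19144 and 16519 for ND_C 1 to 4 and 17989, 15832, 15699 and 10539 for ND_B12 1 to 4. For Slc22a30 the diabetic libraries held 13542, 11556, 10574 and 12190.2 in D_C and 11731, 12369.8, 10628 and 14323 in D_B12. Its ND_C and D_C libraries did not overlap, ND_B12 4 lay below every diabetic library, and D_B12 4 and D_C 1 were the highest diabetic values. The log2 fold change was -0.46 ± 0.10, adjusted p = 0.0216 in edgeR, and -0.56, adjusted p = 0.000411 without ND_B12 4 and D_C 1. The call was lost, at adjusted p = 0.0502 to 0.0553, when D_B12 1, D_B12 3, ND_B12 2, ND_B12 3 or ND_C 2 was left out.

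The rarer copies moved by a similar amount. Normalized counts of Slc22a29 were 865, 961, 911 and 879 for ND_C 1 to 4 and 884, 796, 817 and 575 for ND_B12 1 to 4. For Slc22a29 the diabetic libraries held 678, 579, 519.9 and 637 in D_C and 575, 636, 539 and 638 in D_B12. Its ND_C and D_C libraries did not overlap. The log2 fold change of Slc22a29 was -0.47 ± 0.08, adjusted p = 0.0121 in edgeR, and that of Slc22a27 was -0.47 ± 0.10, adjusted p = 0.0217. Without the 2 doubtful libraries these were -0.56, adjusted p = 0.000153 and -0.56, adjusted p = 0.00125. Slc22a27 ran from 234 over a median of 358 to 439 normalized counts in the 8 non-diabetic libraries and from 214 over 260.3 to 288 in the 8 diabetic ones. The calls on Slc22a28 and Slc22a29 held whichever library was left out, and that on Slc22a27 was lost without D_B12 1, D_B12 3, ND_B12 2, ND_B12 3, ND_C 2 or ND_C 3, at adjusted p = 0.0508 to 0.0569.

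**Figure D3:**
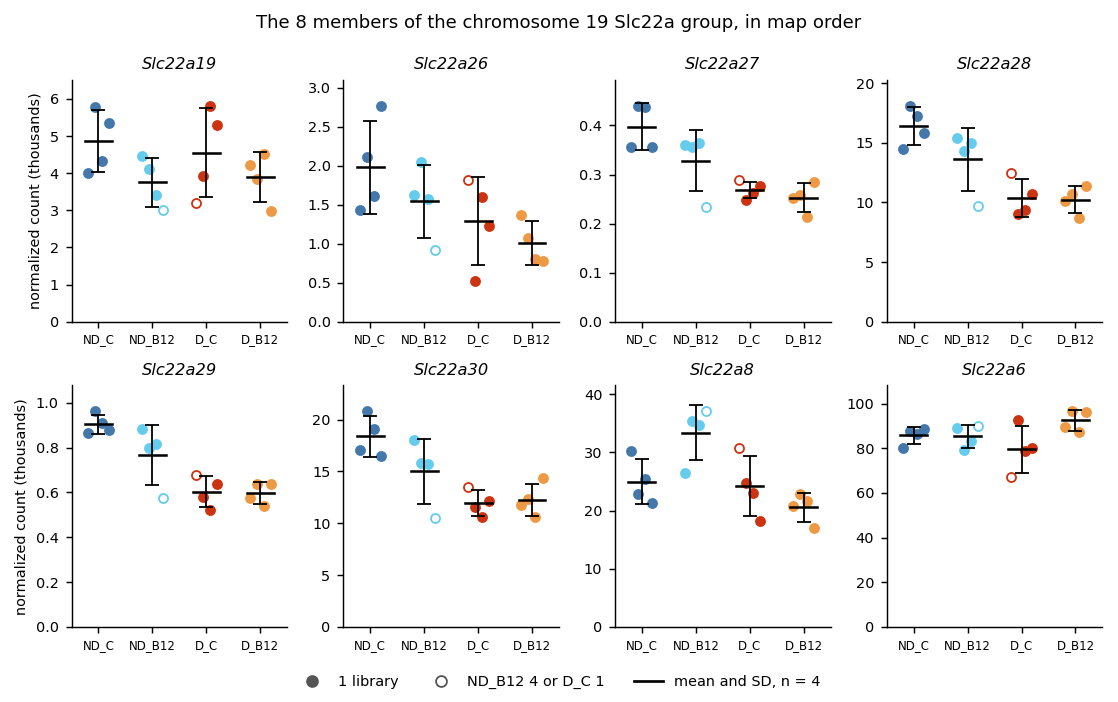
Normalized counts of the 8 SLC22 genes of chromosome 19 in map order, with 1 point per library by labelled group and the mean with SD. Open points are the libraries labelled ND_B12 4 and D_C 1, and Slc22a27 to Slc22a30 are lower in D_C than in ND_C in every library.

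Reads of these copies can be hard to assign. Of the 50-base stretches of the main Slc22a28 transcript, 48.2% also occur in Slc22a30, and 24.4% of those of Slc22a29 occur in Slc22a27, so the split between copies is uncertain. Summed over the 4 genes, normalized counts averaged 36093 ± 3549 for ND_C and 29717 ± 5951 for ND_B12 (mean ± SD, n = 4), against 23226 ± 2855 for D_C and 23345 ± 2733 for D_B12.

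Promoters of the group are shown because 3 of the 4 genes that fell share stretches of letters with Slc22a19, a neighbour whose estimate was near 0. Each is the 250 bases before the start of the main transcript, GRCm39, minus strand, written 5′ to 3′, at chr19:8109347-8109596 for Slc22a28, chr19:8382476-8382725 for Slc22a30, chr19:8196264-8196513 for Slc22a29 and chr19:7688676-7688925 for Slc22a19. Capitals mark matches to CAANGTCCA, a form close to the element bound by HNF4 factors.
Slc22a28: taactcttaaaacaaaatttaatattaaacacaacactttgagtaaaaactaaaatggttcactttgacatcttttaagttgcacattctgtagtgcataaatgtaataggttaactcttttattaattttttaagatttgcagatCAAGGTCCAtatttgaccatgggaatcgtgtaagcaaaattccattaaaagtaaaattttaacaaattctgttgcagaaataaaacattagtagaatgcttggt
Slc22a30: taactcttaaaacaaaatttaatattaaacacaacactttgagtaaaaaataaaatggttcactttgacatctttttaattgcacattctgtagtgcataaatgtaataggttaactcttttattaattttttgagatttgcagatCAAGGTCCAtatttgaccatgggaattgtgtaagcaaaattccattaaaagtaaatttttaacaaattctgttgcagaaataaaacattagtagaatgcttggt
Slc22a29: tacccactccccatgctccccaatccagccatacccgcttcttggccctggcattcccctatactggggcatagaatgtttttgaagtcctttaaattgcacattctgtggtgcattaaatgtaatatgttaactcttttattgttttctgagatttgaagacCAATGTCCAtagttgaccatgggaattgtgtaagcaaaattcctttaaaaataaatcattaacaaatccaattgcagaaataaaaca
Slc22a19: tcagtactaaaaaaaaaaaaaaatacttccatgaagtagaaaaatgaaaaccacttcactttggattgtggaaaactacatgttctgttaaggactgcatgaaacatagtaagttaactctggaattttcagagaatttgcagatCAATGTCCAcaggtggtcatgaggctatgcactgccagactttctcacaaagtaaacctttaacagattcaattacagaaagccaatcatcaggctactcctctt
Both strands were searched for this 1 motif. CAANGTCCA was found in 0.831% of 21770 promoters of protein-coding genes and in 4 of 61 members (6.56%), the ones printed. The promoter of Slc22a27, the remaining gene of the group that fell, held no match and is not printed. The letters were picked after these sequences had been read, so these shares are descriptions. Identity over the window was 97.6% between Slc22a28 and Slc22a30, 63.6% between Slc22a28 and Slc22a29, and 61.2% between Slc22a28 and Slc22a19. Slc22a19 carried a match, and its log2 fold change in diabetes was -0.02 ± 0.13, adjusted p = 0.953 in edgeR.

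At the end of the same stretch lie Slc22a8 and Slc22a6, which encode the main basolateral uptake carriers of organic anions. Normalized counts of Slc22a8 (OAT3) were 30224, 22830.2, 25516 and 21300.2 for ND_C 1 to 4 and 26418, 35393, 34773 and 37058 for ND_B12 1 to 4. For Slc22a8 the diabetic libraries held 30726, 24673, 23099 and 18196 in D_C and 20763, 22801, 21595 and 17087 in D_B12. Libraries 2 to 4 of ND_B12 held the highest values, ND_B12 did not overlap with D_B12, and ND_C and D_C overlapped. Averaged over both treatments the log2 fold change of Slc22a8 was -0.37 ± 0.11, adjusted p = 0.0681 in edgeR, and -0.41, adjusted p = 0.0204 without the 2 doubtful libraries. Slc22a6 (OAT1) gave 0.0011 ± 0.06, adjusted p = 0.995. Its normalized counts in the 8 non-diabetic libraries had a lowest, median and highest value of 79185, 87127 and 90100.2, against 66996, 88562 and 96547 in the 8 diabetic ones, and the groups overlapped.

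Other SLC22 members known in the proximal tubule were not called. Slc22a7 (OAT2, an organic anion carrier of the straight segment) had the largest negative SLC22 estimate, -0.68 ± 0.25, adjusted p = 0.147, with a wide spread from 2038 to 12642 in non-diabetic and 2747 to 8555 normalized counts in diabetic libraries. Without ND_B12 4 and D_C 1 its value was -0.78, adjusted p = 0.0257. The urate carrier gene Slc22a12 gave -0.15 ± 0.06, adjusted p = 0.159, and Slc22a13 (OAT10, a carrier of urate and nicotinate, which shares 48.8% of its 50-base stretches with Slc22a13b) gave -0.01 ± 0.09, adjusted p = 0.958. The cation uptake gene Slc22a2 gave -0.12 ± 0.06, adjusted p = 0.333. Slc22a5 (OCTN2, the high-affinity carnitine carrier, which shares 25.9% of its 50-base stretches with Slc22a21) gave -0.08 ± 0.07, adjusted p = 0.542, and Slc22a4 (OCTN1, the ergothioneine carrier) 0.06 ± 0.06, adjusted p = 0.609, all in edgeR. None of these 6 genes passed the test over all 16 libraries. Without the 2 doubtful libraries Slc22a4 passed it at 0.13, adjusted p = 0.0249.

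On the urine side of cation secretion, Slc47a1 (chr11:61234226-61269171, minus strand) was lower in diabetic kidneys. Normalized counts of Slc47a1 were 41152, 45787, 43073 and 39858 for ND_C 1 to 4 and 44836, 41784, 42351 and 40309.5 for ND_B12 1 to 4. For Slc47a1 the diabetic libraries held 35902, 33778, 33015 and 35178 in D_C and 36842, 38132, 36856 and 42162 in D_B12. Every D_C library lay below every non-diabetic library, and the D_B12 libraries lay above D_C, with D_B12 4 inside the non-diabetic range. Slc47a1 fell by 14.2% (log2 fold change -0.22 ± 0.04, adjusted p = 0.0168 in edgeR), the smallest shift among the members called lower, and the call held whichever library was left out. Without ND_B12 4 and D_C 1 the value was -0.24, adjusted p = 0.00363. Slc47a2, at a level under 1, gave 0.40 ± 0.31, adjusted p = 0.511.

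Among the SLCO carriers, Slco4a1 (chr2:180097984-180116660, plus strand), which transports thyroid hormones and prostaglandins, had the largest rise of any member called. Normalized counts of Slco4a1 were 468, 399.6, 323 and 791 for ND_C 1 to 4 and 467, 878, 438 and 769 for ND_B12 1 to 4. For Slco4a1 the diabetic libraries held 1593, 2162, 1042 and 1627 in D_C and 1529, 763, 736 and 525 in D_B12. The D_C libraries all lay above the ND_C libraries, and D_B12 overlapped with ND_B12. The averaged log2 fold change was 1.08 ± 0.24, adjusted p = 0.0293 in edgeR, a rise of 112%. The call was lost without D_B12 1, D_C 2, ND_B12 1, ND_B12 3, ND_C 2 or ND_C 3, at adjusted p = 0.0565 to 0.0662. Without ND_B12 4 and D_C 1 together the value was 1.14, adjusted p = 0.0196.

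The abundant carriers of the kidney, Slco1a1 and Slco1a6, had estimates of -0.59 ± 0.18, adjusted p = 0.0843 and -0.21 ± 0.06, adjusted p = 0.0598 in edgeR. Slco1a1 spread from 15131 to 43193 normalized counts over the non-diabetic libraries and from 14559.8 to 26174 over the diabetic ones, so the groups overlapped. Both passed the test without ND_B12 4 and D_C 1, at -0.66, adjusted p = 0.0251 for Slco1a1 and -0.22, adjusted p = 0.0455 for Slco1a6. The prostaglandin carrier gene Slco2a1 gave 0.25 ± 0.09, adjusted p = 0.125 over all libraries, Slco3a1 gave -0.19 ± 0.07, adjusted p = 0.166, and Slco4c1, a basolateral carrier of digoxin and uraemic solutes, gave -0.06 ± 0.09, adjusted p = 0.765. Without the 2 libraries Slco2a1 and Slco3a1 passed, at 0.32, adjusted p = 0.0222 and -0.24, adjusted p = 0.0229.

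Most of the ABCC members had estimates above 0. Abcc5 encodes MRP5, an exporter of cyclic nucleotides, and lies at chr16:20150053-20245192, minus strand. Normalized counts of Abcc5 were 3286, 2991, 2848 and 3090.3 for ND_C 1 to 4 and 2605, 2781, 3159.9 and 3283 for ND_B12 1 to 4. For Abcc5 the diabetic libraries held 3539.8, 3526, 3586 and 3362 in D_C and 3775, 3133, 3724 and 3607 in D_B12. D_C lay above ND_C in every library, and D_B12 overlapped with ND_B12. Abcc5 rose by 17.4% (0.23 ± 0.05, adjusted p = 0.0348 in edgeR), and the call was lost on leaving out any of 10 libraries (D_B12 1, 3 and 4, D_C 2 and 3, ND_B12 1, 2 and 3, and ND_C 2 and 3), at adjusted p = 0.0515 to 0.0757. Leaving out both doubtful libraries gave 0.26, adjusted p = 0.0107.

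Abcc2, the apical pump for conjugates, was the most abundant member of that family. Normalized counts of Abcc2 were 32488, 34989, 30014 and 35188 for ND_C 1 to 4 and 36585, 34953, 34742 and 39069 for ND_B12 1 to 4. For Abcc2 the diabetic libraries held 29923, 45006, 53157 and 46291 in D_C and 38459.8, 42459.5, 53296 and 39875 in D_B12. ND_B12 4 had the highest non-diabetic value and D_C 1 the lowest diabetic one, and without both the genotypes did not overlap. Its log2 fold change was 0.33 ± 0.10, adjusted p = 0.0805 over all libraries and 0.42, adjusted p = 0.00299 without them, in edgeR. The corresponding values were 0.58 ± 0.20 (adjusted p = 0.123) and 0.75 (adjusted p = 0.0329) for Abcc4, and 0.24 ± 0.07 (adjusted p = 0.0675) and 0.27 (adjusted p = 0.0191) for Abcc1, which encodes the basolateral exporter of glutathione conjugates MRP1. Abcc3, another basolateral exporter of conjugates, gave 0.50 ± 0.23, adjusted p = 0.248, and Abcc6, a liver and kidney pump linked to the control of mineralization, gave -0.08 ± 0.13, adjusted p = 0.794.

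In ABCB the call was Abcb9 (chr5:124199593-124233903, minus strand), a lysosomal peptide pump. Normalized counts of Abcb9 were 504, 501, 608 and 649.7 for ND_C 1 to 4 and 529.5, 726, 678 and 751 for ND_B12 1 to 4. For Abcb9 the diabetic libraries held 645, 825, 813 and 768 in D_C and 795, 761, 805 and 785 in D_B12. D_B12 lay above ND_B12 in every library, and 1 D_C library, D_C 1, lay within the range of ND_C. The log2 fold change was 0.33 ± 0.08, adjusted p = 0.0448 over all libraries and 0.39, adjusted p = 0.00877 without ND_B12 4 and D_C 1. It was lost on leaving out any of 13 libraries, all but D_C 1, ND_B12 4 and ND_C 4, at adjusted p = 0.0616 to 0.0924. The P-glycoprotein genes Abcb1a and Abcb1b, which share 15.4% of the Abcb1a 50-base stretches, gave -0.20 ± 0.18, adjusted p = 0.581 and -0.43 ± 0.30, adjusted p = 0.471.

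Abcg3 (chr5:105082923-105130584, minus strand), a rodent half-transporter, fell at a low level. Normalized counts of Abcg3 were 93.9, 74.6, 117 and 54.7 for ND_C 1 to 4 and 87.3, 83.4, 72.1 and 41.6 for ND_B12 1 to 4. For Abcg3 the diabetic libraries held 50.8, 39.5, 43.5 and 44.7 in D_C and 42.1, 51.7, 39.5 and 63.2 in D_B12. ND_C and D_C did not overlap, and ND_B12 and D_B12 did. The log2 fold change was -0.73 ± 0.18, adjusted p = 0.0421 in edgeR. It was lost without any of 12 libraries, all but D_B12 4, D_C 1, ND_B12 4 and ND_C 4, at adjusted p = 0.0630 to 0.0944. With both doubtful libraries left out it was -0.86, adjusted p = 0.00707. Abcg2 gave -0.09 ± 0.05, adjusted p = 0.362, and the cholesterol exporter gene Abcg1 0.18 ± 0.13, adjusted p = 0.492. No member had every non-diabetic library on 1 side of every diabetic library over 8 against 8, beside 0.386% of all tested genes. Without ND_B12 4 and D_C 1, 6 members did (9.84%), beside 2.72%. These were Slc22a27, Slc22a28, Slc22a29 and Slc22a30, lower in diabetes, and Abcb9 and Abcc2, higher.

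**Figure D4:**
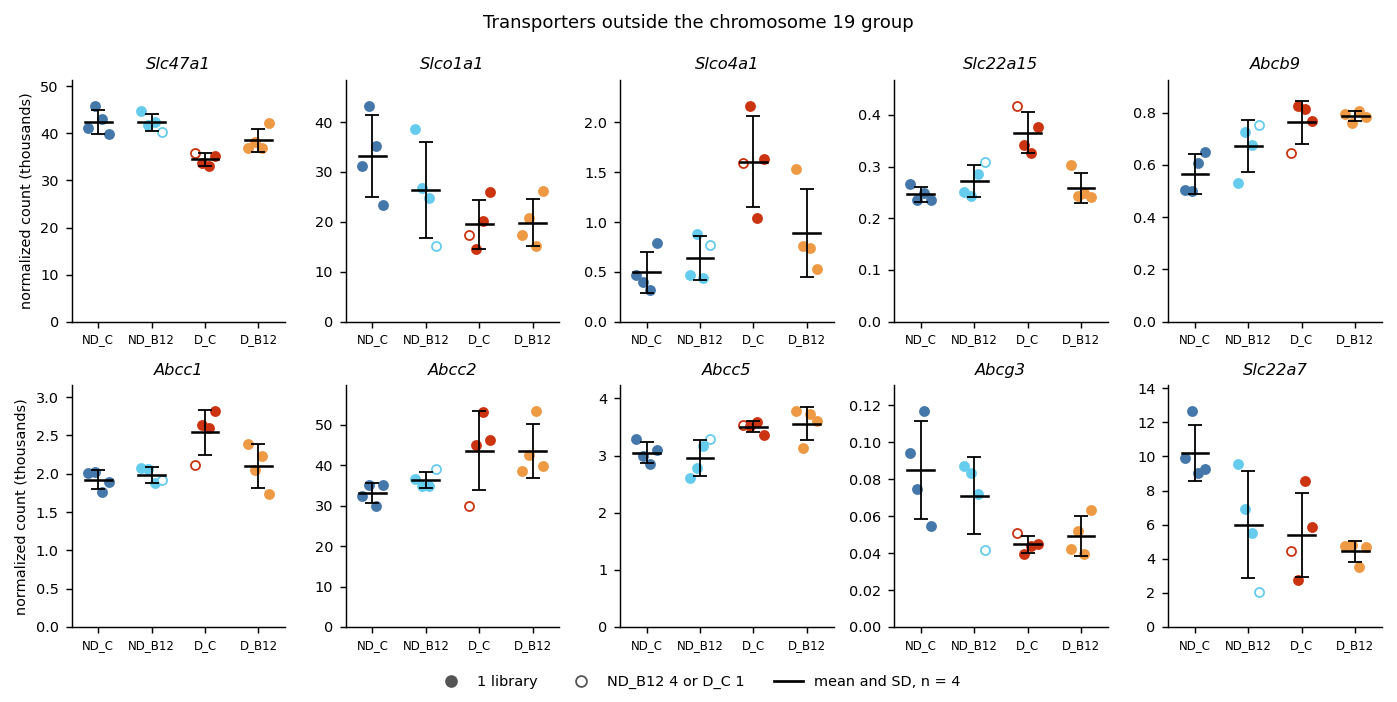
Normalized counts of 10 further transporters, with 1 point per library by labelled group and the mean with SD. Slc47a1 and Abcg3 are lower and Slco4a1, Abcc5 and Abcb9 higher in diabetic groups, and the open points are the libraries labelled ND_B12 4 and D_C 1.

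The effect of diabetes was then taken apart by treatment, as labelled. In untreated kidneys (D_C minus ND_C) 7 members were called (11.5%), beside 1.66% of all genes. Lower (0.728% of all genes) were Slc22a28 at -0.66 ± 0.14, adjusted p = 0.0348, Slc22a30 at -0.62 ± 0.13, adjusted p = 0.0394, Slc22a29 at -0.58 ± 0.12, adjusted p = 0.034 and Slc47a1 at -0.30 ± 0.06, adjusted p = 0.034. Higher (0.937%) were Slco4a1 at 1.69 ± 0.35, adjusted p = 0.0348, Slc22a15 at 0.57 ± 0.12, adjusted p = 0.034 and Abcc1 at 0.40 ± 0.10, adjusted p = 0.0492 in edgeR. The groups did not overlap for 12 members (19.7%), beside 9.44% of all genes. No member was called in edgeR without ND_C 1, ND_C 2, ND_C 3, D_C 2 or D_C 4, 1 was called without D_C 3, 4 without ND_B12 2 and 11 without D_C 1. Of all 25408 genes the first 5 of these fits called 71, 0, 2, 46 and 17. The fits without D_C 3, ND_B12 2 and D_C 1 called 61, 142 and 1551 genes. Without both doubtful libraries Slc22a28 gave -0.76, adjusted p = 0.00108, Slc22a30 -0.68, adjusted p = 0.00254, Slc22a29 -0.64, adjusted p = 0.00182, Slc47a1 -0.32, adjusted p = 0.00852, Slco4a1 1.70, adjusted p = 0.018, Slc22a15 0.50, adjusted p = 0.018 and Abcc1 0.48, adjusted p = 0.00923. In that fit 14 members were called, beside 8.21% of all genes, and DESeq2 called 15 over all libraries, beside 6.31%.

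Slc22a15, an SLC22 carrier of low abundance, was called higher in the untreated comparison. Normalized counts of Slc22a15 were 266, 236, 249 and 235 for ND_C 1 to 4 and 250.02, 242, 286 and 308 for ND_B12 1 to 4. For Slc22a15 the diabetic libraries held 417, 342, 326 and 377 in D_C and 303, 244, 248 and 240.5 in D_B12. The D_C libraries lay above every other library, and D_B12 overlapped with ND_B12, where the log2 fold change was -0.07 ± 0.12, adjusted p = 0.803. The interaction of diabetes and B12 for Slc22a15 was -0.64 ± 0.16, adjusted p = 0.0883 in edgeR.

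In B12-treated kidneys (D_B12 minus ND_B12) 1 member was called (1.64%), beside 0.823% of all genes, and it was lower (0.563%). This was Slc22a8, at -0.70 ± 0.15, adjusted p = 0.0437, against -0.05 ± 0.15, adjusted p = 0.912 in untreated kidneys. The interaction for Slc22a8 was -0.66 ± 0.21, adjusted p = 0.151 in edgeR. Its call in treated kidneys was lost without any of 12 libraries, at adjusted p = 0.0535 to 0.158, and held without D_C 1, D_C 2, ND_B12 1 or ND_C 4. The groups did not overlap for 6 members (9.84%), beside 11.7% of all genes. Without the 2 doubtful libraries Slc22a8 gave -0.65, adjusted p = 0.029 and 7 members were called, beside 2.69%, and DESeq2 called 3 over all libraries, beside 4.51%. The untreated and treated comparisons share no library, and 25 members were lower and 14 higher in both, of 61. The same share over all genes was not computed, and close copies among the members share reads, so these counts are descriptions.

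**Figure D5:**
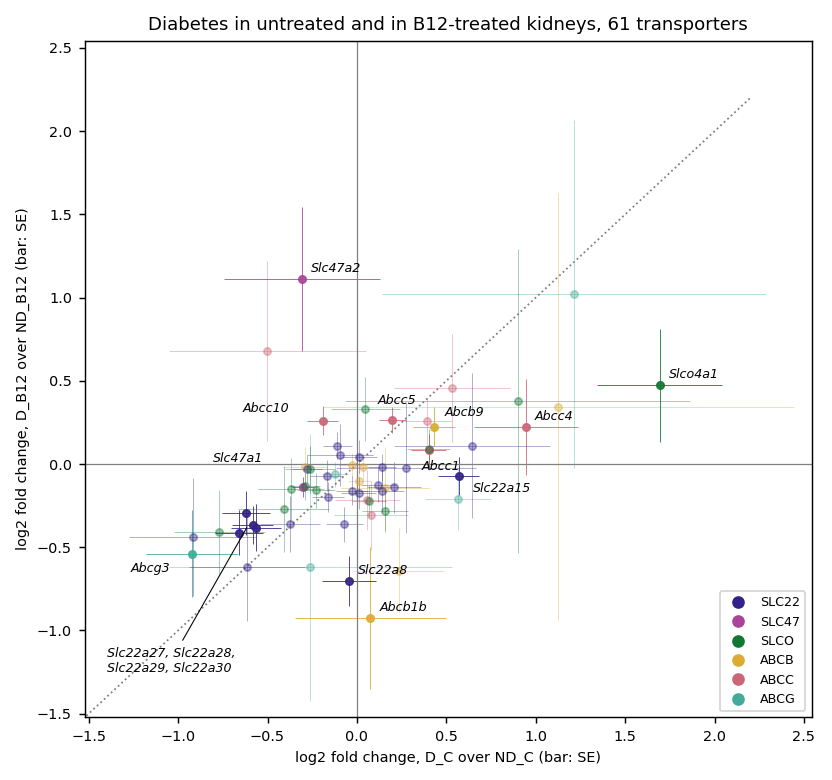
Log2 fold change in diabetes for the 61 transporters in untreated kidneys (D_C over ND_C, horizontal) and B12-treated kidneys (D_B12 over ND_B12, vertical), with SE bars and the line of equality dotted. Slc22a27 to Slc22a30 lie below 0 on both axes, Slco4a1 lies at 1.69 and 0.47, and Slc22a8 at -0.05 and -0.70.

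The next question was what B12 itself changed. With edgeR no member was called for B12 in non-diabetic kidneys, in diabetic kidneys, averaged over both genotypes or in the interaction, where 0.0% of all genes were called in each. At an unadjusted p below 0.05 there were 6, 12, 4 and 10 members, beside 7.62%, 13.6%, 5.2% and 16.1% of all genes. With DESeq2 0, 3, 0 and 3 members were called, beside 0.0236%, 2.68%, 0.0236% and 3.63% of all genes. In diabetic kidneys the smallest p-values belonged to Slc22a15 at -0.50 ± 0.12, adjusted p = 0.0978 and Abcc10, an ABCC pump of broad substrate range, at 0.32 ± 0.09, adjusted p = 0.136. The study reports Slc22a4 as significantly upregulated with B12 in diabetic kidneys. By the labels its mean normalized count was 4347 in D_B12 and 4718 in D_C, and these groups overlapped. By the group means that accompany the study, Slc22a4 would be higher with B12.

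Slc47a1, called lower in diabetes, was higher in every library labelled D_B12 than in every one labelled D_C, at 38498 ± 2517 against 34468 ± 1310.3 normalized counts (mean ± SD, n = 4). Its two-sided exact permutation p was 0.0286, the smallest that 4 against 4 allows. Any gene whose 2 groups do not overlap has this p, so it adds nothing to the lack of overlap. Its edgeR value was 0.16 ± 0.06, adjusted p = 0.25. It was 1 of 2 members without overlap in this comparison (3.28%), beside 6.58% of all genes, and the other was Slc22a15, lower in the libraries labelled D_B12. By the group means that accompany the study, which match the D_B12 libraries to D_C, Slc47a1 would be lower and Slc22a15 higher with B12. In non-diabetic kidneys the smallest p-values were those of Slc22a8 at 0.43 ± 0.15, adjusted p = 0.586 and Slc22a23 at 0.25 ± 0.09, adjusted p = 0.588, and 0 members had groups that did not overlap, beside 4.81%. Averaged over genotypes they were those of Slc22a23 at 0.19 ± 0.06, adjusted p = 0.841 and Slc22a19 at -0.30 ± 0.13, adjusted p = 0.933. The interaction of Abcc10 was 0.45 ± 0.12, adjusted p = 0.103. Without ND_B12 4 and D_C 1, Abcc10 was called for B12 in diabetic kidneys, at 0.40, adjusted p = 0.0385, beside 0.842% of all genes.

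Lists of related genes, set with earlier results known, were read for diabetes averaged over both treatments. They held androgen-dependent kidney genes, nuclear factors, scaffolds and carriers that drive transport, and clock genes. In that average edgeR called 3.02% of all tested genes (2.16% lower) and DESeq2 7.21%, and 19.4% had an unadjusted edgeR p below 0.05. Of 9 androgen-dependent kidney genes, all had an averaged estimate below 0 in diabetes and 4 were called lower, with a median of -0.53. These were Kap (kidney androgen-regulated protein) at -0.49 ± 0.13, adjusted p = 0.048, Odc1 (ornithine decarboxylase) at -0.65 ± 0.16, adjusted p = 0.0371, Gusb (beta-glucuronidase) at -0.55 ± 0.13, adjusted p = 0.0301 and Timd2 at -0.53 ± 0.06, adjusted p = 0.00307, in edgeR. Of 13 nuclear factors 1 was called, Ppara, a receptor for fatty acids, at -0.28 ± 0.07, adjusted p = 0.0346. Hnf4a, a factor of liver and kidney epithelium, gave -0.17 ± 0.06, adjusted p = 0.129. With edgeR 0 of 6 tested scaffolds and driving carriers were called (2 at an unadjusted p below 0.05, 1 with DESeq2), and 0 of 12 clock genes (0 and 0). Without ND_B12 4 and D_C 1 edgeR called 9.82% of all genes, 4.6% higher and 5.21% lower. That fit called 6 androgen-dependent genes and 2 nuclear factors lower. Of the scaffolds and driving carriers it called 2 higher and 1 lower, and of the clock genes 0. Over all libraries the median of the clock genes differed in sign by treatment label, at 0.20 for D_C minus ND_C and -0.35 for D_B12 minus ND_B12. The genes went both ways, with 8 estimates above 0 and 4 below in the first, and 4 above and 8 below in the second. Of the 12, edgeR called 0 in either comparison, in D_B12 minus D_C or in the interaction. In that order, at an unadjusted p below 0.05 there were 4, 9, 10 and 11, beside 4725, 4317, 3468 and 4093 of all 25408 genes. DESeq2 called 1, 4, 4 and 7 of the 12, beside 6.31%, 4.51%, 2.68% and 3.63% of all genes.

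Markers of kidney and other cell types were read beside these results, again for diabetes averaged over both treatments. The shares of all genes given above for that average apply here too. Of 8 proximal tubule markers all had estimates below 0 and 2 were called lower in diabetes, Slc34a1 (the phosphate carrier) at -0.25 ± 0.05, adjusted p = 0.0178 and Ggt1 at -0.34 ± 0.07, adjusted p = 0.0215. Their summed normalized count ran from 1087920 to 1234990 in non-diabetic and 960894 to 1190420 in diabetic libraries. Of 5 markers of the straight segment 0 were called with edgeR, 3 at an unadjusted p below 0.05 and 0 with DESeq2, with sums of 48741 to 91284 and 39406 to 78630.4. That list holds Slc22a7 and Cyp7b1, which are also a transporter and an androgen-dependent gene of the lists above. Aqp2 was called higher among 4 principal cell markers, at 1.14 ± 0.27, adjusted p = 0.0348. C1qa was called lower among 5 macrophage markers at -0.47 ± 0.12, adjusted p = 0.0382, Jchain among 5 B and plasma cell markers at -2.09 ± 0.33, adjusted p = 0.0116, and Cd3g among 4 T cell markers at -1.18 ± 0.30, adjusted p = 0.0475. Without ND_B12 4 and D_C 1 edgeR called 9.82% of all genes, 4.6% higher and 5.21% lower. In that fit 2 proximal tubule, 4 macrophage, 2 B and plasma cell and 2 T cell markers were called lower. Of the straight segment markers 1 was higher and 2 were lower, and 2 principal cell markers were higher. Over all libraries in that average no marker was called with edgeR for thick ascending limb, distal convoluted tubule, intercalated cells, podocytes, endothelium, fibroblasts and mural cells, adipocytes or liver, with 0 to 2 per list at an unadjusted p below 0.05 and 0 to 1 with DESeq2. The fit without ND_B12 4 and D_C 1 called 2 endothelial, 1 intercalated cell and 1 liver marker higher. It called 1 thick ascending limb marker lower and 1 distal convoluted tubule marker each way. For podocytes, fibroblasts and mural cells, and adipocytes it called 0. In untreated kidneys all 4 endothelial and all 4 liver markers had an unadjusted p below 0.05, with 0 called by edgeR and 3 and 2 by DESeq2, at medians of 0.34 and 0.74. Of all 25408 genes 4725 had such a p there, edgeR called 1.66% and DESeq2 6.31%. Without the 2 doubtful libraries edgeR called 3 endothelial and 2 liver markers higher in untreated kidneys, beside 8.21% of all genes. In B12-treated kidneys edgeR called 1 liver marker, lower, and 0 endothelial ones (1 at an unadjusted p below 0.05, 0 with DESeq2). Of all genes edgeR called 0.823% there, 0.563% lower, and DESeq2 4.51%. Of 4 skeletal muscle markers 0 reached the minimum count, and of 3 adrenal markers 1 did and was not called. The part of these shifts in the transporter results was not tested.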

How the data were processed

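RNA was extracted from whole kidney with the RNeasy Mini kit and sequenced as Watchmaker total RNA libraries, with paired reads of 50 bp. Per the labels and the study's methods, the authors converted the base calls with bcl2fastq 2.20.0, aligned the reads with STAR to GRCm39 and GENCODE vM35, and deposited estimated counts per gene and per transcript from StringTie. Strand was taken from intron motifs in the alignment. Whether the counting used strand, and the versions of STAR and StringTie, are not given in the sources used here. Such estimated counts divide reads between close copies and overlapping genes, and reads of antisense partners may not be told apart.

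Estimated counts were rounded, and edgeR 4.0.16 (R 4.3.3, limma 3.58.1) tested the 25408 genes that reached 100 counts in all by its quasi-likelihood test, with TMM normalization, 1 mean per labelled group over the 16 libraries and Benjamini-Hochberg adjustment over all tested genes. The common biological coefficient of variation was 0.201 with 12 residual degrees of freedom. Normalized counts are counts over size factors from the median of ratios. Positions, exon lengths and promoters came from GENCODE vM39 on GRCm39, which matched all 61 members. The edgeR steps were also run on simulated data in which 200 genes were changed. The simulation took the labels as correct and held no date effect, so it does not bear on doubts about either.

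Named genes were a fixed list of kidney transporters, the largest called rises and falls of each comparison (at most 6 each way averaged over treatments, 3 otherwise), the 2 smallest p-values where none was called, and the most abundant member of each family. Values of some single genes that this rule or the lists name are not reported here. Members, lists and tests were chosen with earlier results of these data known. Alternatives were DESeq2 1.42.0, upper-quartile normalization, other count filters, a covariate for the label date, a replicate block, the compared groups alone, each library left out, and the doubtful libraries left out together.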

Additional observations from a re-analysis of the deposited data

Results flagged for a closer look

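Normalized counts of 35 transporters were examined in 140 groups of 4 for a library far from the other 3 by Dixon's criterion, which chance passes in about 1 in 20 groups. Abcc3 was 123 in ND_C 2, with the other ND_C libraries at 339 to 379. Slc22a15 was 303 in D_B12 1 against 240.5 to 248. Slc22a2 was 24869.8 in ND_B12 1 against 21295 to 21739. In ND_B12 4, a library whose genotype is in doubt, Slc22a27 was 234 against 355 to 364 and Slc22a4 was 4926 against 4185 to 4287. Slc22a7 was 3513 in D_B12 3 against 4682 to 4811. Outside the tested genes, Abcg5 had 98 counts over all libraries, Slco5a1 66 and Slco1c1 41, all under the minimum and above the 3 counts that a count of 0 allows.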

How the results depend on the processing

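Of the values for single members under alternatives, 1261 kept their direction and side of the threshold, 152 lost the call, 53 gained it and 31 changed sign. Most of these values belong to results that edgeR did not call over all libraries, which had no call to lose. Calls averaged over treatments stayed below 0.05 in 8 of 23 alternatives for Abcb9 and Abcg3. For Slc22a28, Slc22a29 and Slc47a1 it was 22 of 23, and the other calls lay between. For diabetes averaged over both treatments, where edgeR called 9 members, DESeq2 called 16, the label date as a covariate 0, and the fit without ND_B12 4 and D_C 1 22, with 3 to 15 when 1 library was left out. For diabetes in untreated kidneys (7 members) the counts were 15 with DESeq2, 0 without a count filter, 0 with the label date, 4 with the compared groups alone, 14 without the doubtful libraries, and 0 to 11 with 1 library left out. For diabetes in B12-treated kidneys (1 member) they were 3 with DESeq2, 0 with upper-quartile normalization, 0 without a count filter, 0 with the label date, 7 without the doubtful libraries, and 0 to 2 with 1 left out. DESeq2 called 3 members for B12 in diabetic kidneys and 3 for the interaction, against 0 with edgeR, the fit without the doubtful libraries called 1 for B12 in diabetic kidneys, and the interaction gave 0 to 1 with 1 library left out. Causes of these shifts were not tested.

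With the label date as a covariate the medians over members were -0.22 for all, -0.31 for SLC22, -0.42 for SLCO, -0.19 for ABCB and -0.26 for ABCG. The ABCB median (-0.017) changed sign by less than the spread between libraries, to 0.028 without the doubtful libraries and within -0.056 to 0.019 with 1 left out, and the SLC47 median (0.091) did so to -0.076 with the label date. The sign of the averaged log2 fold change turned with the label date for Abcc2 (-0.13), Slc22a4 (-0.19), Slc22a6 (-0.048) and Slc22a8 (0.078), and for Abcb9 in B12-treated kidneys (-0.025). Without the doubtful libraries it turned for Abcc10 (-0.023), Slc22a13 (0.022) and Slc22a19 (0.0016). With 1 library left out, averaged values ran from -0.0056 to 0.065 for Abcc10, -0.15 to 0.021 for Abcc6, -0.051 to 0.043 for Slc22a13, -0.088 to 0.047 for Slc22a19, -0.035 to 0.039 for Slc22a6 and -0.10 to 0.000055 for Slco4c1.

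Replicate numbers did not pair the libraries, since deviations of libraries with the same number correlated at -0.183 to 0.168 over 24 pairs. With the replicate block 7 members were called for diabetes averaged over treatments, 5 in untreated and 0 in B12-treated kidneys, and Slc22a6 turned to -0.0021. The number of calls over all genes moved from 767 to 478, from 423 to 269 and from 209 to 25 in those comparisons, and from 0 to 147 in the interaction. Over all genes, DESeq2 called 1832 for diabetes averaged over treatments, and the label date as a covariate left 0. With 1 library left out, calls over all genes ran from 225 to 1687 in that comparison. They ran from 0 to 1551 in untreated and from 0 to 438 in B12-treated kidneys.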
